A study of Mus musculus with 100 samples.

Results

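Binding of PGC1β, a transcriptional coactivator, was measured by chromatin immunoprecipitation and sequencing (ChIP-seq) in mouse bone marrow-derived macrophages (BMDMs) treated with Veh or with KLA for 6 h, in the experiment that added no solvent control. KLA is Kdo2-lipid A, a ligand of the toll-like receptor TLR4, and Veh is the matched control treatment. The members are all 45675 peaks of the table that holds the 4 libraries PGC1b_WT_Veh and PGC1b_WT_KLA, 2 of each, out of 610301 listed regions in 15 tables and 100 libraries of the whole series. Both groups were wild type BMDMs of C57BL/6 background from young adult mice, grown in macrophage colony-stimulating factor and kept in low serum before treatment. KLA was the only difference between the groups that the labels give, and whether library preparation differed is not stated. The replicates were biological replicates per the labels. The comparison asks where on the genome PGC1β was gained and where it was lost after TLR4 was engaged.

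PGC1β (gene Ppargc1b) does not bind DNA by itself but is brought to chromatin by factors such as nuclear receptors, and it is best known for turning on mitochondrial and fatty acid oxidation genes. TLR4 signaling in macrophages releases NF-κB into the nucleus, activates AP-1 and interferon regulatory factors, and turns on cytokine, chemokine and interferon response genes. PU.1 and C/EBP factors mark macrophage enhancers before the signal. A ChIP-seq peak reports how many sequenced fragments (tags) came from a site, which is occupancy in a cell population and not the activity of the nearest gene.

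The 4 libraries held 17021209 and 21511411 tags with Veh and 9155939 and 17482465 with KLA. The share of tags inside the listed peaks was 12.1 and 12.6% with Veh and 12.5% in KLA replicate 2, but 16.3% in KLA replicate 1, the shallowest library, which therefore stands apart from the other 3. Replicates correlated over peaks with a Pearson r of 0.90 for Veh and 0.80 for KLA on the log2 scale, and in both groups they differed by more than sampling noise, with a chi-square per peak of 2.18 and 3.15. Of 9 macrophage marker genes all 9 were the nearest gene of at least 1 peak and 8 had one within 2 kb of the transcription start site (TSS), against 15 and 2 of 24 markers of other cell types. Values below are tags per 10 M sequenced tags of a library. Chromatin came from whole cell populations, so more cells with PGC1β at a site and more PGC1β per cell cannot be told apart.

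The DNA sequences of 10 peaks are shown first, as 200 bases around the peak centre on the plus strand of GRCm38 (mm10), read from the RefSeq genome sequence. They are the gained and the lost peaks with the lowest p that lie outside untranslated regions, 3 in each direction, and, chosen after their sequences were searched, the other peaks among the 12 lowest p of each direction that hold an NF-κB, AP-1 or PU.1 motif. Capitals mark every match to the 10 motifs spelled out further on. The gained peaks held 0 to 7.64 tags with Veh in either library.
Mir155hg, chr16:84713126-84713325: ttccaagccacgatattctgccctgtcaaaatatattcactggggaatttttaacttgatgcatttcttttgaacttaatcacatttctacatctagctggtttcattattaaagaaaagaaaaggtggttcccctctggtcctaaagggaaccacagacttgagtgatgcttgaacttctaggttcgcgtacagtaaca
Mir3966, chr10:97442517-97442716: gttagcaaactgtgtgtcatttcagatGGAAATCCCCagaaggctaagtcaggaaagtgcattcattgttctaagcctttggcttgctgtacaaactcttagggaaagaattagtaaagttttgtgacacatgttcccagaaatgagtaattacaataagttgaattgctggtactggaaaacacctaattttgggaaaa
Il1bos, chr2:129363464-129363663: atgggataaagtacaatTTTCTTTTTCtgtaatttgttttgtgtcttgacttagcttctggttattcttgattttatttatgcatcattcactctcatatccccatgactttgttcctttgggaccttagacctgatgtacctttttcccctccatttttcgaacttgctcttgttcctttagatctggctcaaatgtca
Lpp, chr16:24766603-24766802: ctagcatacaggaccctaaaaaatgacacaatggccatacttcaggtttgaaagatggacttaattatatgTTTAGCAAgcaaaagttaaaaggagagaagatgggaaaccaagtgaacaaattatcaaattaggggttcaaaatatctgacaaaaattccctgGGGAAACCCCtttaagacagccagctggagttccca
Mir101b, chr19:29176583-29176782: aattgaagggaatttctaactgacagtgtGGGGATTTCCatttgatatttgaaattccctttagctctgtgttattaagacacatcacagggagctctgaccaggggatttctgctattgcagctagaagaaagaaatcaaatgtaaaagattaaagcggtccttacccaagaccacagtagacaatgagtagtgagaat
The lost peaks are shown for the contrast in base composition: they held 42.5 to 54.5% GC over the 5 sites, against 36 to 39% at the 5 gained sites.
Shisa9, chr16:12089777-12089976: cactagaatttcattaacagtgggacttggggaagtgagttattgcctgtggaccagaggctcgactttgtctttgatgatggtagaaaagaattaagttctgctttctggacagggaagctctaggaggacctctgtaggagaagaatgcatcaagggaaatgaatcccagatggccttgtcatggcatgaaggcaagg
Phb, chr11:95687356-95687555: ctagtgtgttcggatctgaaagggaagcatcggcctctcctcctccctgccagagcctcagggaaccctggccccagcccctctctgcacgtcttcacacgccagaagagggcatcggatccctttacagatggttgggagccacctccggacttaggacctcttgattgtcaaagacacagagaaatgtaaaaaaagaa
Enc1, chr13:97239587-97239786: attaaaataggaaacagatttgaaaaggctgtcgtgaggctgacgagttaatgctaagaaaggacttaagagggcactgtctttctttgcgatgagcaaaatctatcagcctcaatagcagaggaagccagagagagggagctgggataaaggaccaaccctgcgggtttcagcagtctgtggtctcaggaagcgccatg
Mylk4, chr13:32604013-32604212: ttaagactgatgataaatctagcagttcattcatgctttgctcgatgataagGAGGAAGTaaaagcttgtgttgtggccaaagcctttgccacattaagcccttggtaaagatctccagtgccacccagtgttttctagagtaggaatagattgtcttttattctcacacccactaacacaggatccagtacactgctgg
Slc7a13, chr4:19869633-19869832: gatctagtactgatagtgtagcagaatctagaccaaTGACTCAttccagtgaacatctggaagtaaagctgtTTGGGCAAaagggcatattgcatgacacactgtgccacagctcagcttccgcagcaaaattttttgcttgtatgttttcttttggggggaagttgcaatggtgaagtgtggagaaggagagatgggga

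KLA was followed by more gains than losses of PGC1β, and gained peaks made up a larger share near inflammatory and interferon response genes than over all peaks. A peak was called when its edgeR adjusted p was under 0.05 and its change over 2-fold, and called peaks are named gained or lost. By that rule 7507 peaks (16.4%) were gained and 2899 (6.35%) were lost. The gained peaks went from a median over peaks of 7.64 and 8.37 tags in the Veh libraries to 44.8 and 31.5 in the KLA libraries, and the lost peaks from 29.4 and 30.7 to 7.65 and 8.01. The median log2 fold change was 2.09 over gained and -1.83 over lost peaks, against 0.060 over all peaks. No Veh tag at all was counted in either library at 36 gained peaks, and no KLA tag at 82 lost peaks. The count of losses moved most with the settings: TMM scaling, which shifted the median of all peaks from 0.060 to -0.053, gave 7227 gained and 4170 lost peaks, and without KLA replicate 1 the counts were 6776 and 5375. Dropping KLA replicate 2 gave 10639 and 4543, dropping Veh replicate 1 gave 3753 and 760, and dropping Veh replicate 2 gave 3862 and 578.

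**Figure D1:**
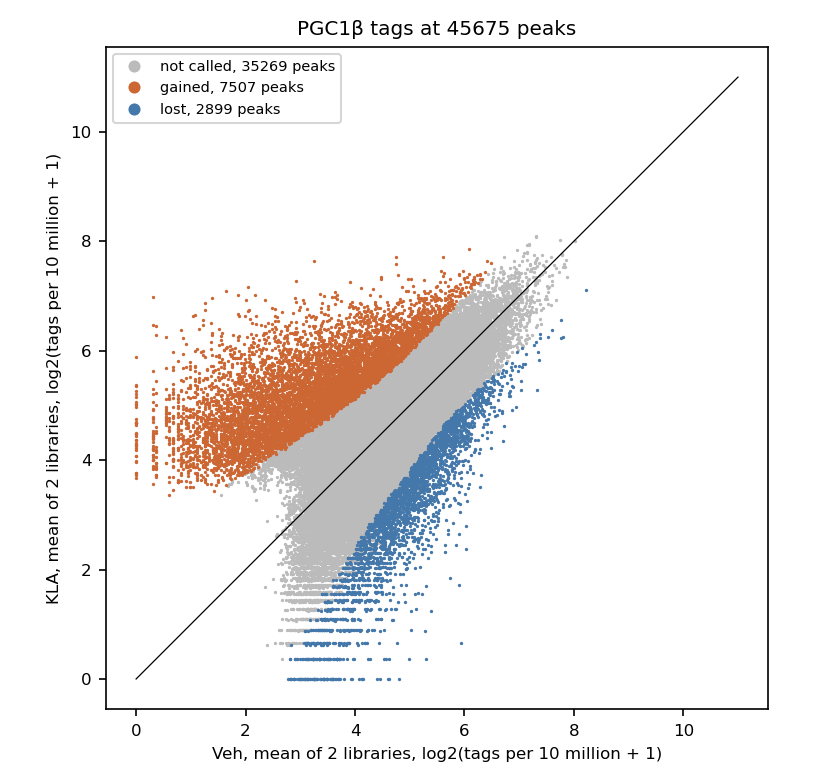
Each point is 1 of the 45675 PGC1β peaks, with the mean of the 2 Veh libraries on the x axis and the mean of the 2 KLA libraries on the y axis, both as log2(tags per 10 M + 1). The 7507 gained peaks lie above the line of equality and reach down to 0 tags with Veh, and the 2899 lost peaks lie below it.

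The authors listed a peak when it was found with Veh, with KLA or in both, and that origin tracked the direction. Of 12333 peaks found with KLA alone, 6170 (50.03%) were gained and 7 were lost. Of 17170 found with Veh alone, 2439 (14.2%) were lost and 72 were gained. Of 16172 peaks found in both sets, 1265 (7.82%) were gained and 453 (2.80%) lost. Peak finding used the same libraries as the test, so the origin is no separate support.

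The gained peaks with the lowest p, 1 per nearest gene, were mostly outside promoters. The first of them lay inside Mir155hg, the host gene of the inflammation-induced microRNA miR-155, 0.202 kb from the start site that the deposited annotation gives. By another gene annotation the peak lay 10.058 kb from the start of Mir155hg and -0.915 kb from the start of the miR-155 hairpin. It held 0 and 0.465 tags with Veh against 154 and 97.2 with KLA. Because only 1 Veh tag was counted, the ratio of summed tags was 450 with a 95% counting interval of 80.2 to 17825. At Mx1, an interferon-induced GTPase, the values were 0 and 0.465 with Veh against 89.6 and 85.8 with KLA, a ratio of 336 (counting interval 59.6 to 13312). These intervals are exact conditional Poisson intervals and cover counting error alone. At both sites the KLA libraries were far apart from the Veh libraries.

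A peak -6.34 kb from the start of Il1bos, a transcript opposite the interleukin gene Il1b, rose from 7.64 and 5.58 to 138 and 170 tags, a log2 fold change of 4.55 ± 0.36 (SE, adjusted p = 6.93e-07). In an intron of Tbxas1, which encodes thromboxane A synthase, tags went from 2.94 and 2.32 to 156 and 100.7 (5.57 ± 0.44, adjusted p = 6.93e-07). A peak -33.1 kb from Ptgs2os2, a transcript that opposes the cyclooxygenase gene Ptgs2, went from 2.35 and 1.86 to 174 and 95.5 (5.95 ± 0.47, adjusted p = 6.93e-07). These genes belong to the interleukin and prostanoid arms of inflammation. No Veh value reached any KLA value, which held at 7505 of the 7507 gained peaks. The groups also did not overlap at 53.6% of uncalled peaks, so this does not set the named peaks apart.

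Acod1 encodes the enzyme that makes the metabolite itaconate in activated macrophages. A peak 11.3 kb from its start rose from 3.53 and 4.65 to 121 and 121 tags (log2 fold change 4.84 ± 0.39, adjusted p = 7.71e-07). Its promoter rose from 1.18 and 2.79 to 93.9 and 65.2 (5.21 ± 0.50, adjusted p = 3.23e-06). The remaining gained peaks of lowest p were an intron of Lpp, a cell adhesion and cytoskeletal protein, intergenic peaks near the microRNA genes Mir3966 and Mir101b, the upstream region of Fpr1, a receptor for bacterial formyl peptides, and intergenic peaks near Edn1 (endothelin 1) and 1700016G22Rik. Their log2 fold changes ran from 4.48 (1700016G22Rik) to 6.46 (Mir3966).

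Lost peaks of lowest p lay near other genes than the gained ones. The first lay in a 3′ untranslated region, with Tbc1d9 as the nearest TSS, and went from 64.6 and 56.2 tags with Veh to 0 and 1.14 with KLA, a ratio of summed tags of 0.0125 (counting interval 0.00151 to 0.0458). In an intron of Shisa9, tags went from 40.5 and 36.3 to 0 and 0.572, a ratio of 0.00984 (0.000247 to 0.0557). In an intron of Soga1 they went from 27.03 and 26.96 to 0 in both KLA libraries, which is at least 23.97-fold lower against a floor of 3 tags over the group. Every one of these losses left the KLA libraries at or next to 0.

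Losses also reached peaks that kept measurable tags with KLA. A peak 6.998 kb from Zfp36l2, which encodes an mRNA decay factor, fell from 49.9 and 66.9 to 5.46 and 5.15 (log2 fold change -3.46 ± 0.46, adjusted p = 4.30e-05). The peak near Slc7a13, an amino acid transporter gene, fell from 104 and 103 to 22.9 and 16.02 (-2.44 ± 0.34, adjusted p = 6.07e-05). The others were near Phb (prohibitin, a mitochondrial inner membrane protein), Enc1, Mylk4 (a myosin light chain kinase), Mir21c, 4930404N11Rik, 3300005D01Rik and 4930432J09Rik. The Veh and KLA libraries did not overlap at any of the 12. The same held at all 2899 lost peaks and at 53.6% of uncalled peaks, so it does not set these 12 apart.

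**Figure D2:**
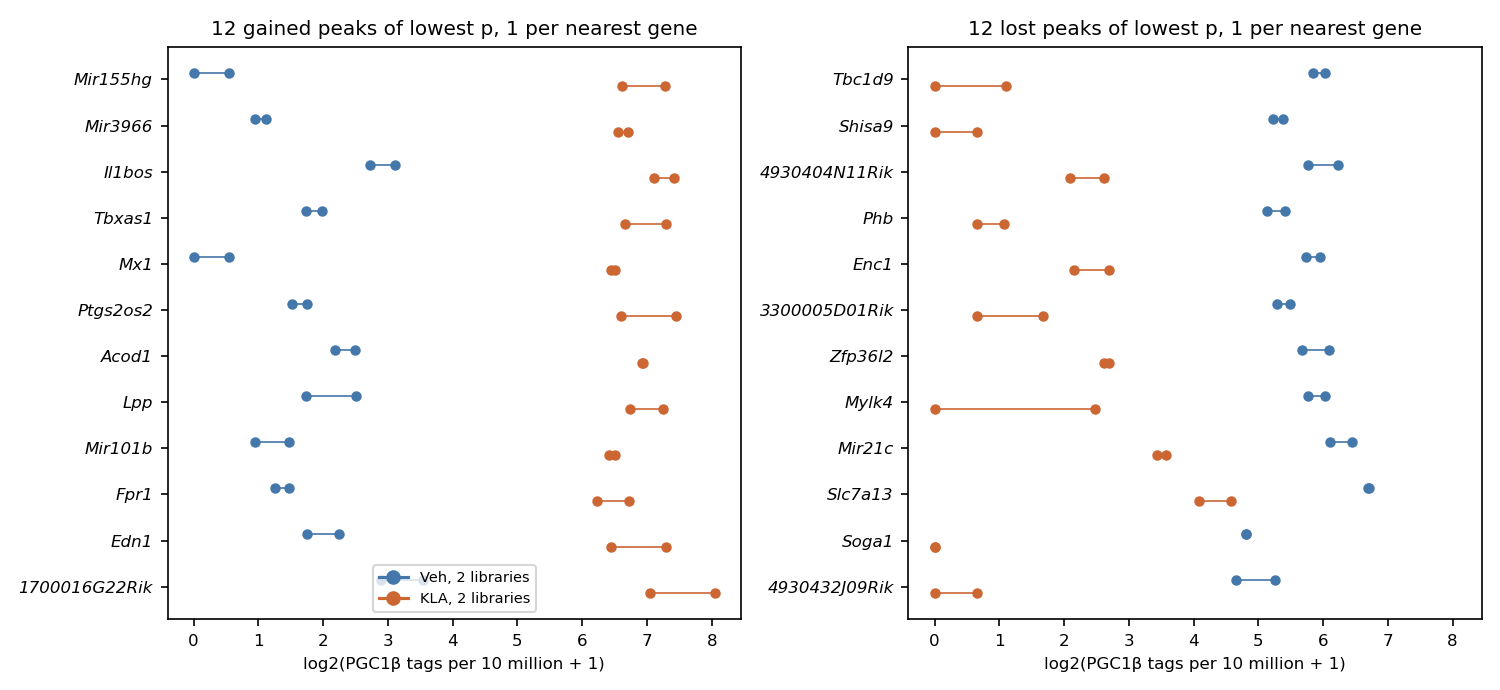
PGC1β tags in each library, as log2(tags per 10 M + 1), at the 12 gained (left) and 12 lost (right) peaks of lowest p with 1 per nearest gene; each point is a library and a line joins the 2 libraries of a group. Gained peaks sit between 0 and 4 with Veh and above 6 with KLA, and lost peaks sit between 4 and 7 with Veh and below 5 with KLA.

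Some loci held many gained peaks, though most genes with a gain had fewer than 5. Gained peaks had 3766 nearest genes and lost peaks 1859, out of 13329 genes with a peak, and 514 genes had both. In 284 genes there were 5 or more gained peaks, which held 27.9% of all gained peaks, and 63 genes had 5 or more lost peaks, with 13.8% of the lost ones. Edn1 had 24 gained and 0 lost of 27 peaks over 172 kb, and its summed tags went from 429 and 426 with Veh to 1841 and 1478 with KLA. Tnfaip3, which encodes the NF-κB inhibitor A20, had 18 gained of 22 peaks, with sums of 549 and 566 against 1987 and 1417. Itgb8, an integrin subunit, had 20 gained of 22, with sums of 313 and 318 against 1514 and 1067. These loci were picked by gained peaks in the same tags, so higher KLA sums were favored by the choice. The other loci with the most gained peaks were 1700019E08Rik (27 of 46), Lpp (22 of 38), 1700016G22Rik (20 of 42), Nr3c1 (19 of 35), which encodes the glucocorticoid receptor, and Pla2g4a (18 of 28), the phospholipase that frees arachidonic acid. A locus here is the set of peaks with the same nearest gene. Such sets spanned from 147 kb (Tnfaip3) to 1207 kb (1700019E08Rik), with 1142 kb for Pla2g4a.

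The loci with the most lost peaks held transcription factors, a corepressor subunit and transcripts named by clone. Klf4, a monocyte and macrophage transcription factor, had 11 lost and 1 gained of 37 peaks over 619 kb. Its summed tags went from 1187 and 1311 with Veh to 801 and 577 with KLA. Fli1, an ETS family factor, had 9 lost and 0 gained of 17 over 139 kb, with sums of 688 and 690 against 374 and 308. Gcnt1, a glycosyltransferase gene, had 11 lost and 0 gained of 22 over 220 kb, with sums of 990 and 1153 against 577 and 469. Tbl1xr1, a subunit of the NCoR corepressor complex, had 10 lost and 2 gained of 32 over 729 kb. Its sums were 904 and 939 against 645 and 473. At the loci of Klf4, Fli1, Gcnt1 and Tbl1xr1 both KLA sums were below both Veh sums. The loci were picked by lost peaks in these same tags, so lower sums were favored by the choice and are no separate support. The list also held 4933433H22Rik (12 of 24), A630001O12Rik (10 of 32), 9430078K24Rik (9 of 28) and Zfp36l2, whose 24 peaks split into 8 lost and 5 gained and whose sums of 709 and 875 with Veh and 724 and 586 with KLA overlapped.

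By annotation, gained and lost shares were both higher away from a TSS, and the gap was wider for gains. Of 37931 peaks over 2 kb from a TSS, 6795 (17.9%) were gained and 2459 (6.48%) lost. Of 7741 peaks within 2 kb, 712 (9.20%) were gained and 440 (5.68%) lost. With the offset for GC content described below, 12.6% of distal and 8.24% of proximal peaks were gained and 11.7 and 6.52% lost, so the gap was then no longer wider for gains. Within 0.5 kb of a TSS losses outnumbered gains, at 267 (5.81%) and 233 (5.07%) of 4596 peaks, whereas beyond 100 kb gains reached 19.5%. Introns (18.3% gained) and intergenic regions (17.6%) were near the share of all peaks, and promoter-TSS (6.09%), 5′ UTR (8.43%) and exon (9.33%) peaks were under it. CpG island peaks had 16 gains (3.34%) and 40 losses (8.35%) among 479.

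The shares of in-peak tags in each library moved the same way, but these are the tags that gave the calls. Promoter-proximal peaks held 17.1 and 16.9% of in-peak tags with Veh and 15.1 and 16.01% with KLA. The means were 17.0 ± 0.13 and 15.5 ± 0.67% (SD, n = 2), and the groups did not overlap. An exact permutation test of 2 against 2 libraries gave p = 0.33, which is the smallest it can give. Peaks found with KLA alone held 13.1 and 13.4% of in-peak tags with Veh and 29.5 and 27.3% with KLA. They were found in these same KLA libraries, so a higher share with KLA was built into the selection.

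Peaks in LINE and DNA transposon repeats had a higher gained share than all peaks. Among peaks whose detailed annotation was a repeat, 33.0% of 1885 LINE peaks and 34.2% of 477 DNA transposon peaks were gained, against 20.0% of 2744 LTR and 12.3% of 3118 SINE peaks and 16.4% of all peaks. By family, chosen after these shares were seen, gains reached 36.8% in hAT-Charlie, 35.8% in L1, 32.2% in TcMar-Tigger and 30.6% in MIR elements, against 20.3% in L2 and 7.01% in B2 elements. LINE peaks held 3.41 and 3.45% of in-peak tags with Veh and 4.66 and 4.404% with KLA. LINE and DNA transposon peaks were also poor in GC, at a median of 42.5 and 42.0%, against 47.0% over all peaks. Among peaks under 40% GC, 49.2% of LINE peaks and 37.4% of distal peaks outside these repeats were gained.

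Base composition moved with the change of PGC1β across the whole table. The median GC content in 200 bp was 42.0% at gained, 48.0% at uncalled and 50.5% at lost peaks. Gains fell from 38.0% of peaks under 40% GC to 23.1, 13.5, 7.79 and 2.83% in the bins from 40, 45, 50 and 55% GC upward, while losses were 2.10, 4.08, 6.70, 9.69 and 8.82%. The tag-weighted GC of the libraries was 49.0 and 48.8% with Veh and 46.7 and 47.4% with KLA. An alternative fit, chosen after this was seen, which sets the median change of each GC bin to about 0 by an offset, gave 5411 gained and 4926 lost peaks. Of these, 5034 and 2594 were gained and lost in the fit without the offset too. The gained share under 40% GC was then 17.9% and the lost share 16.6%. Whether base composition contributes to the calls was not tested.

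**Figure D3:**
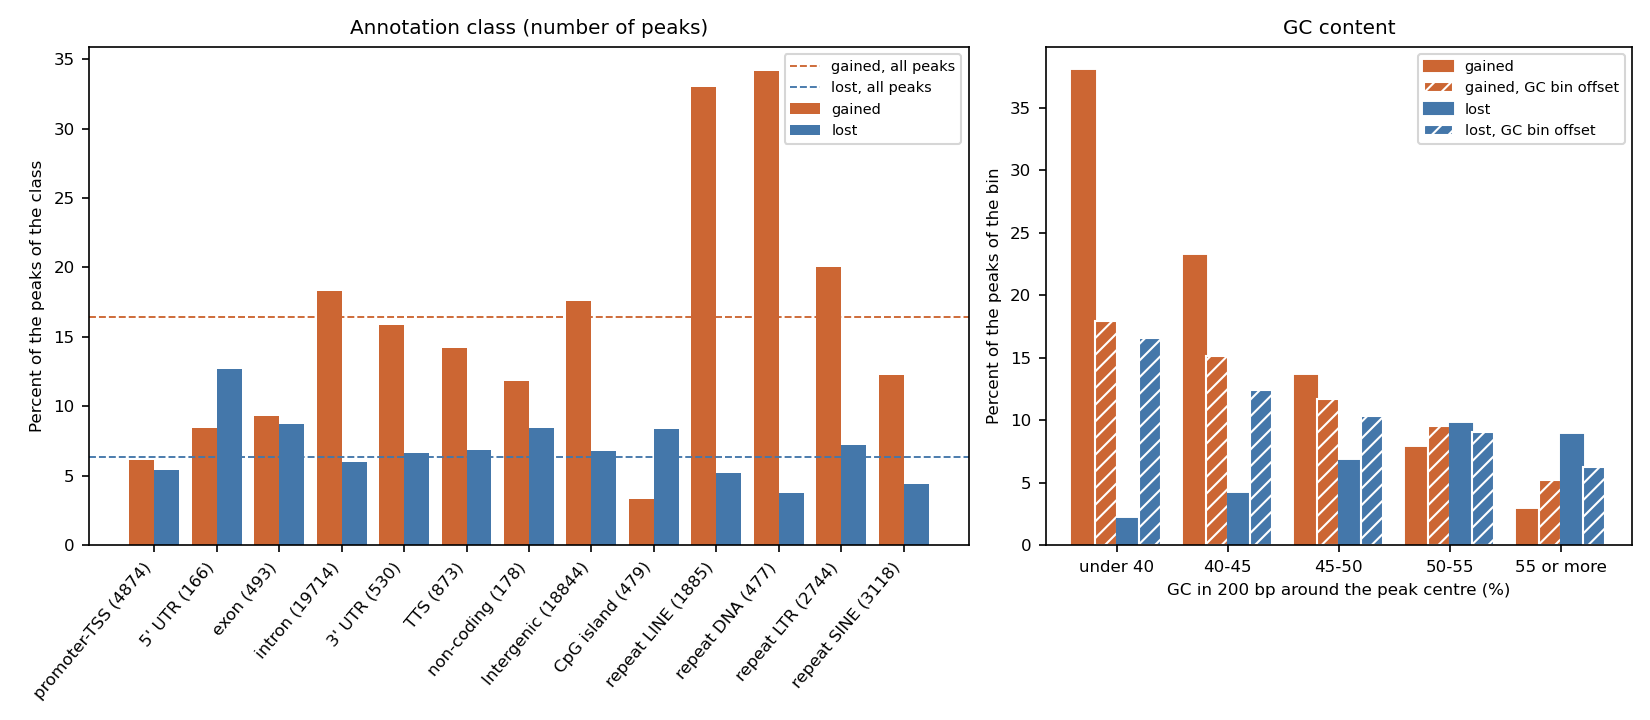
Left, the percent of peaks gained and lost in each annotation class, with the number of peaks in brackets and dashed lines at the shares of all peaks (16.4 and 6.35%). Right, the same shares by GC content of 200 bp around the centre, with hatched bars for the fit with an offset per GC bin; plain bars fall from 38.0 to 2.83% for gains, and hatched bars from 17.9 to 5.18%.

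Gene lists were then described by the peaks nearest their genes. Some have roles in the TLR4 response, and others hold metabolic, lineage, clock, osteoclast, corepressor or other cell type genes. Together the 16 lists hold 353 genes, of which 305 had at least 1 peak, and their 1921 peaks had 586 gains and 118 losses. The share over all peaks was 16.4% gained and 6.35% lost, with a median log2 fold change of 0.060. Inflammatory enzymes and effectors had the highest gained share, 80 of 127 peaks (63.0%, median 1.71), over 22 of 24 genes. Inflammatory cytokines had 69 gained and 1 lost of 131 (52.7%, median 1.19), over 16 of 23 genes, and chemokines 54 and 1 of 113 (47.8%, median 1.08), over 16 of 19 genes with a peak. Within 2 kb of a TSS these 3 lists had 18 of 25, 13 of 26 and 15 of 28 peaks gained and 0 lost, against 9.20 and 5.68% of all such peaks.

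Of the cytokine gains 56 of 69 lay over 2 kb from a TSS, against 90.5% of all gained peaks. Il6, the gene of interleukin 6, had 15 gained of 16 peaks, and the one of lowest p, -133 kb from the TSS, held 0.588 and 0 tags with Veh against 114 and 60.1 with KLA. Il12a, a subunit of interleukin 12, had 11 gained of 12, and a peak -58.0 kb from its TSS went from 2.94 and 5.58 to 50.2 and 64.1 (log2 fold change 3.70 ± 0.47, adjusted p = 2.95e-05). Il12b, which encodes its partner subunit, gained 2 of 9, with a peak at -9.86 kb that went from 2.35 and 1.39 to 69.9 and 65.2. Upstream of Il1a tags went from 4.11 and 1.39 to 72.1 and 48.6. All peaks near Inhba (5 of 5) were gained, and none near Csf3, Osm, Il33, Il23a, Ebi3, Tgfb1 or Tnfsf9 was called.

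Among chemokines, Ccl5 had 9 gained of 10 peaks. One in an intron 3.27 kb from the TSS went from 0 and 3.25 to 90.7 and 158 tags, and the promoter from 1.76 and 0 to 80.8 and 56.6. Cxcl10, an interferon-induced chemokine, had all 5 of its peaks gained, and the one of lowest p already held 14.1 and 9.30 tags with Veh against 98.3 and 78.4 with KLA (2.92 ± 0.37, adjusted p = 3.13e-05). Ccl7 likewise started at 11.8 and 12.1 and reached 122 and 64.6 (2.94 ± 0.39, adjusted p = 4.32e-05). A peak near Cxcl5, a neutrophil attractant, went from 2.94 and 2.32 to 92.8 and 56.6.

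Of the effectors, Ptgs2 had all 6 peaks gained. A peak at its transcription termination site, 8.83 kb from the TSS, held 0 tags in both Veh libraries and 59.0 and 57.2 with KLA, at least 74.3-fold higher against the floor of 3 tags over the group. The Ptgs2 promoter held 21.7 and 11.6 tags with Veh and 65.5 and 72.1 with KLA, and this call was lost without Veh replicate 2. Ptges, the prostaglandin E synthase gene, had 3 of 3 peaks gained, and one rose from 2.94 and 4.18 to 119 and 58.9. The 5′ UTR peak of Cp, which encodes the copper protein ceruloplasmin, rose from 1.18 and 8.37 to 86.3 and 73.8 (3.96 ± 0.50, adjusted p = 3.04e-05). Ptgs1, the constitutive cyclooxygenase gene, went the other way, with 3 lost and 0 gained of 8 peaks.

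NF-κB subunits and signal inhibitors had 96 gained and 5 lost of 220 peaks (43.6%, median 0.77), over 20 of 25 genes. Tnfaip3 (18 of 22), Nfkbia (13 of 19), which encodes IκBα, Tnip3 (12 of 20) and Nfkb1 (8 of 12) led the list. At 6.67 kb from Nfkbia tags went from 2.94 and 4.18 to 80.8 and 72.6 (4.37 ± 0.44, adjusted p = 4.17e-06), and in an intron of Irak3, an inhibitor of the receptor complex, from 2.94 and 1.86 to 100.5 and 54.3 (4.97 ± 0.51, adjusted p = 4.66e-06). The toll-like receptor signal chain itself had a lower share, 37 gained and 4 lost of 146 (25.3%, median 0.49). Tlr1 had 5 gained of 12, one of them at 0 tags in both Veh libraries and at 42.6 and 26.3 with KLA, and none of the 6 peaks of Tlr9 was called.

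The interferon response list had 71 gained and 6 lost of 140 peaks (50.7%, median 1.09), over 20 of 27 genes with a peak. Ifit3 (10 of 10), Cmpk2 (6 of 6), Mx1 (8 of 10) and Rsad2 (7 of 8), all interferon-stimulated genes, gained at nearly all of their peaks. An intron of Rsad2 held 0 tags in both Veh libraries and 44.8 and 36.6 with KLA, at least 50.6-fold higher. The Oasl1 promoter rose from 5.29 and 8.37 to 112.5 and 99.0 (3.91 ± 0.38, adjusted p = 3.43e-06), and a peak near Gbp5 from 4.70 and 6.97 to 80.8 and 58.9. The 6 losses were near Irf2 (4 of 15), a factor that opposes Irf1, and near Irf5 and Irf1 (1 each). None of the 5 peaks of Ifnb1 was called.

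MicroRNA host loci split by gene. All 6 peaks of Mir155hg and 12 of 18 near Mir21a were gained, and the Mir21a peak of lowest p went from 12.9 and 22.8 to 114 and 100.7 (2.56 ± 0.34, adjusted p = 4.87e-05). All 3 peaks of Mir223, a microRNA of the granulocyte and monocyte lineage, were lost, and the one -0.086 kb from the hairpin's start went from 25.3 and 22.3 tags to 0 and 3.43 (-3.42 ± 0.72, adjusted p = 0.00199). Over the list 26 of 70 peaks were gained and 3 were lost.

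Macrophage lineage genes held gains and losses side by side, 44 and 30 of 255 peaks (17.3 and 11.8%, median 0.10). Maf, a factor of resident macrophages, had 15 gained and 2 lost of 48. A peak 396 kb from the Maf TSS rose from 2.94 and 3.72 to 130 and 50.9 (4.69 ± 0.52, adjusted p = 9.50e-06). Cebpd had 4 gained of 7, and a peak 97.0 kb from its TSS went from 4.70 and 3.72 to 67.7 and 77.2 (4.10 ± 0.43, adjusted p = 5.80e-06). Klf4, with its 11 losses, had a peak at -292 kb that fell from 161 and 159 to 47.0 and 29.2 (-2.11 ± 0.30, adjusted p = 8.04e-05). None of the 7 peaks near Spi1, the PU.1 gene, or the 7 near Itgam was called. With the GC offset the list had 34 gains and 45 losses, and without KLA replicate 1 it had 43 and 47, so its balance turned.

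Osteoclast genes had 28 gained and 15 lost of 134 peaks (median 0.17). Prdm1 (9 of 35), Mitf (8 of 19) and Tnfrsf11a (4 of 10), the receptor RANK, carried most gains, and Atp6v0d2, a proton pump subunit of the bone-resorbing cell, carried 7 losses of 12 peaks. A peak near Tnfrsf11a went from 1.76 and 1.39 to 92.8 and 47.5 tags (5.40 ± 0.56, adjusted p = 4.78e-06). The strongest peak of Acp5 held 52.9 and 58.6 with Veh and 91.7 and 51.5 with KLA, and that of Ocstamp 31.7 and 25.1 against 43.7 and 42.3. Neither passed the test (adjusted p = 0.494 and 0.245). With the GC offset this list had 20 gains and 26 losses.

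Metabolic and mitochondrial genes, the class for which PGC1β is best known, had gained shares near that of all peaks. Oxidative phosphorylation and fatty acid oxidation genes had 8 gained and 5 lost of 55 peaks (14.5 and 9.09%, median 0.034), with 0 of 16 promoter peaks called. The gains were near Cycs, Cs, Ndufa9, Uqcrc2, Uqcrfs1 and Cpt2. A peak 39.0 kb from Cycs, the cytochrome c gene, rose from 2.35 and 2.79 to 76.5 and 38.3 (4.4 ± 0.54, adjusted p = 2.23e-05), and 4 of the 5 losses were near Ucp2, an inner membrane carrier. PGC1, ERR and mitochondrial regulators had 8 gained and 2 lost of 42 (median -0.35), and no peak was nearest to Ppargc1a, Esrra or Gabpa. With the GC offset these lists had 3 and 5, and 2 and 5, gains and losses, so their balance turned, as it did for the regulators without KLA replicate 1 (5 and 6).

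The only peak near Ppargc1b itself, -1.43 kb from its TSS, held 43.5 and 37.7 tags with Veh and 35.0 and 17.7 with KLA (-0.68 ± 0.40, adjusted p = 0.239) and passed the call without KLA replicate 1. LXR targets and sterol synthesis genes had 20 gained and 8 lost of 121 peaks (16.5 and 6.61%, median 0.11). Abca1, the cholesterol exporter, had 5 gained of 22, among them an intronic peak that rose from 12.9 and 11.2 to 51.3 and 59.5 (2.21 ± 0.39, adjusted p = 5.06e-04), while its promoter held 75.2 and 93.0 against 115 and 80.1 (0.19 ± 0.28, adjusted p = 0.662). The strongest peak of Scd2, a fatty acid desaturase gene, held 68.2 and 62.3 against 49.1 and 36.6 (-0.62 ± 0.32, adjusted p = 0.169).

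Corepressor and clock genes had medians below that of all peaks. Corepressor and acetylation complex genes had 13 gained and 19 lost of 141 peaks (9.22 and 13.5%, median -0.29), 10 of the losses near Tbl1xr1, but 23 of each without KLA replicate 2. Circadian clock genes had 6 gained, all near Nfil3, and 6 lost of 47 (12.8% each, median -0.25), the latter near Arntl, Bhlhe41, Npas2 and Tef, and 6 gained and 11 lost without KLA replicate 1. AP-1 and ATF factors had 15 gained and 9 lost of 139 (10.8 and 6.47%, median 0.024). Batf gained 4 of 11 peaks, while Fos and Jun lost 3 each, and without KLA replicate 1 the list had 15 gains and 18 losses. Markers of other cell types had 11 gained and 0 lost of 40 peaks (27.5%, median 0.26), 7 of them near Kdr. Their summed tags were 1047 and 1111 with Veh and 1566 and 1321 with KLA, 9 of the 24 markers had no peak, and their part in the other results was not tested.

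**Figure D4:**
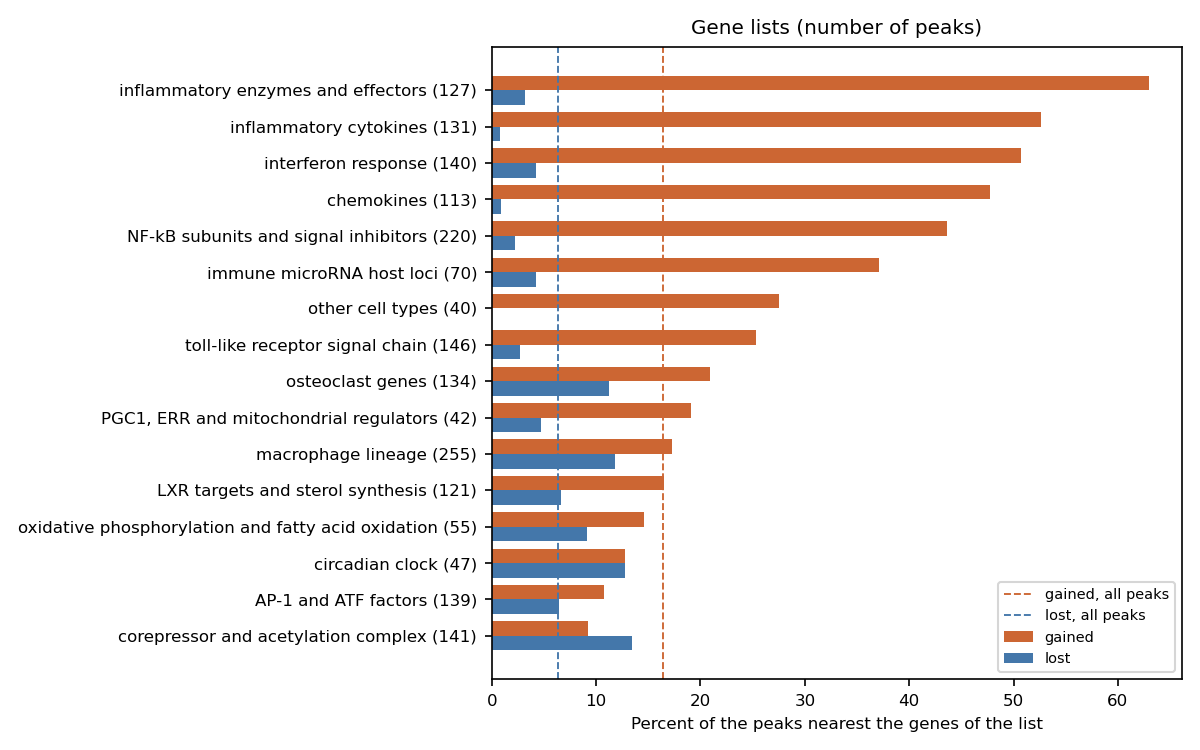
Percent of the peaks nearest to the genes of each list that were gained or lost, with the number of peaks in brackets and dashed lines at the shares of all peaks (16.4 and 6.35%). Inflammatory, interferon, chemokine and NF-κB lists reach 43.6 to 63.0% gained, and corepressor genes have more losses (13.5%) than gains (9.22%).

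Among the promoter-proximal calls, the 8 peaks of lowest p in each direction were named too, chosen after their values were seen. The gained ones belonged to Mir155hg (by the deposited start site), Fpr1, Acod1, Pla2g4a, Oasl1, St7, Ccl5 and Il1bos, and the lost ones to 4930404N11Rik, Enc1, Cerk, Nrp1, Gng2, Arl4c, Bank1 and Cxcr4. The Fpr1 peak rose from 1.76 and 1.39 to 105 and 73.8 tags. At the Cerk promoter, which serves ceramide kinase, tags went from 21.7 and 24.6 to 0 in both KLA libraries, at least 20.7-fold lower. A peak near Cxcr4, a chemokine receptor, went from 45.2 and 39.98 to 6.55 and 6.29 (-2.72 ± 0.47, adjusted p = 3.99e-04), and the promoter of Gng2, a G protein subunit, from 64.6 and 47.0 to 9.83 and 7.44 (-2.72 ± 0.43, adjusted p = 2.17e-04). Groups did not overlap at any of these 4 sites, as at nearly all called peaks and at 53.6% of uncalled peaks.

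Sequence motifs were searched on both strands in the 200 bp windows of 45665 peaks on assembled chromosomes, and a match is a description and not a binding site. NF-κB was searched as GGG and TTTCC or TTCCC separated by 2 free bases, AP-1 as TGANTCA, PU.1 as GAGGAAGT, C/EBP as TTGCNNAA, IRF as GAAA and GAAA separated by 2 free bases, ERR as TCAAGGTCA, KLF/SP as GGGCGG, E-box as CACGTG, Rev-erb/ROR as TAGGTCA, and NRF1 as GCGC and TGCGC separated by 1 free base. Matches of different motifs may overlap. An NF-κB match stood in 7.13% of gained and 1.21% of lost peaks, against 3.18% of all peaks. AP-1 stood in 27.3, 10.2 and 17.5%, C/EBP in 24.4, 9.52 and 13.99%, and IRF in 9.72, 2.48 and 4.69%. PU.1 went the other way, with 6.29% of gained, 10.9% of lost and 8.71% of all peaks.

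The ERR, NRF1 and KLF/SP motifs stood in smaller shares of gained peaks than of all peaks. ERR stood in 0.226% of gained (17 peaks), 0.380% of lost (11 peaks) and 0.318% of all peaks. NRF1 stood in 0.0799 (6 peaks), 0.242 (7 peaks) and 1.23%, and KLF/SP in 3.45, 10.1 and 10.5%. NRF1 and KLF/SP were mostly found near a TSS, where a smaller share of gained peaks lay. Within 2 kb NRF1 stood in 0.562% of gained and 6.48% of all peaks, and KLF/SP in 12.1 and 39.4%. Farther away these shares were 0.0294 and 0.158% for NRF1, and 2.55 and 4.65% for KLF/SP. Read the other way, 36.9% of 1451 peaks with an NF-κB match and 42.3% of the 253 with both NF-κB and AP-1 matches were gained, against 15.8% of the peaks without an NF-κB match. NF-κB matches in gained peaks lay at a median of 36.0 bp from the peak centre, and those in lost peaks at 54.5 bp. The motifs differ in their own base composition, and the part of the base composition given above in these shares was not tested.

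A separate PGC1β experiment, in which BMDMs received DMSO, the solvent of an inhibitor, with Veh or KLA, used other libraries, 2 a group. Of the 53474 peaks listed for it, 16.4% were gained and 1.23% lost, with a median of all peaks of 0.45 on the log2 scale. Centres within 100 bp matched 5644 of the 7507 gained and 2097 of the 2899 lost peaks. At the matched gained peaks the median was 2.05 and 3948 (70.0%) were gained there as well, with 0 lost. At the matched lost peaks the median was -0.80, and 233 (11.1%) were lost and 2 gained. Median tags at gained peaks were 14.6 and 17.5 with Veh against 69.1 and 67.0 with KLA, and at lost peaks 42.2 and 52.5 against 27.6 and 26.8. Whether the size of the losses differed between the experiments was not tested.

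The following 3 sites were chosen after their values were seen. The Mir155hg peak held 4.06 and 0 tags with DMSO and Veh and 223 and 263 with DMSO and KLA. The Klf4 peak at -292 kb held 180 and 229 against 75.003 and 87.8 (-1.32, adjusted p = 0.0049). The lost intronic peak of Tbl1xr1 held 19.5 and 32.1 with Veh and 19.7 and 31.3 with KLA in that experiment, and its values overlapped (0.018, adjusted p = 0.99).

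Other factors profiled in the same kind of cells moved with PGC1β at its peaks. Their libraries are separate, matches were made within 500 bp, and each fold change is KLA against Veh within its own table. The NF-κB subunit p65 was gained at 57% and lost at 5.43% of its own peaks. It had a match at 6540 (87.1%) of the gained PGC1β peaks, where 94.9% of matches were gained and the median was 2.99. At the 1312 matched lost peaks (45.3%) the p65 median was -0.58, with 31.1% lost. Median p65 tags at gained PGC1β peaks were 12.3 and 13.98 with Veh and 105 and 113 with KLA.

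The acetyltransferase p300 was gained at 42.1% and lost at 12.9% of its peaks, and had a match at 89.1% of gained and 63.2% of lost PGC1β peaks. At matched gained PGC1β peaks its median was 2.33 with 86.7% gained, and at matched lost peaks -1.46 with 68.1% lost. Median p300 tags were 18.2 and 17.1 with Veh against 98.2 and 97.3 with KLA at the former, and 57.7 and 53.2 against 20.5 and 20.0 at the latter. The AP-1 subunit Fosl2 (11.4% gained and 4.19% lost over its table) had a match at 66.5% of gained and 45.9% of lost PGC1β peaks. Its medians there were 1.91 and -1.88, with 43.3% of matches gained and 27.1% lost. The kinase ERK1 (10.3 and 2.53% over its table) had a match at 58.5% of gained and only 36.9% of lost PGC1β peaks. Its medians there were 1.69 and -1.21, with 38.4% of matches gained and 19.8% lost.

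The corepressor NCoR and the deacetylase HDAC3, which form 1 complex, followed the same course. NCoR was gained at 23.4% and lost at 16.7% of its peaks, HDAC3 at 27.5 and 11.3%. Gained PGC1β peaks had a match at 85.8% for NCoR and 84.3% for HDAC3, and lost ones at 56.2 and 53.3%. At matched gained PGC1β peaks 62.4% of NCoR and 68.3% of HDAC3 matches were gained (medians 1.504 and 1.58). At matched lost peaks 75.3 and 67.6% were lost (medians -1.69 and -1.38). Median NCoR tags at lost PGC1β peaks fell from 81.3 and 97.7 with Veh to 29.2 and 28.4 with KLA.

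PU.1, the macrophage lineage factor, had more losses than gains over its own table. It was gained at 4.53% and lost at 21.7% of its peaks, with a median of -0.41. At matched lost PGC1β peaks 72.7% of PU.1 matches were lost (median -1.37), with median tags of 116 and 117 with Veh and 42.5 and 43.3 with KLA. At matched gained peaks 36.8% were gained and 0.740% lost (median 0.72), and only 48.6% of gained PGC1β peaks had a PU.1 match, against 61.4% of lost ones.

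**Figure D5:**
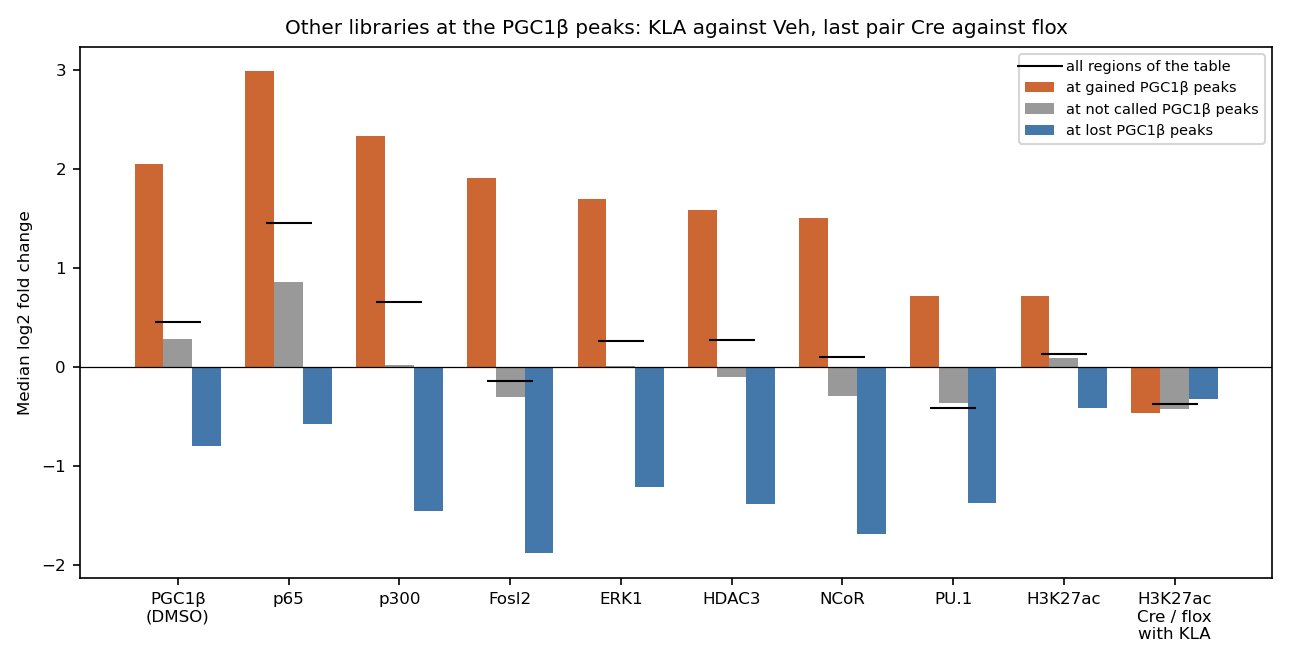
Median log2 fold change of other libraries at gained, uncalled and lost PGC1β peaks (bars), with the median of all regions of that table as a black line; all are KLA against Veh except the last, which is Cre against flox with KLA. Medians are above 0 at gained and below 0 at lost peaks for the PGC1β libraries with DMSO, all 7 other factors and H3K27ac, and near the line of the whole table in the last comparison.

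H3K27ac, a histone acetylation found where regulatory elements are active, was compared at the same sites. In wild type BMDMs 6.49% of tested H3K27ac regions were gained and 3.72% lost, and 1288 gained and 638 lost PGC1β peaks had a tested region within 500 bp. There the median was 0.72 with 23.4% gained, and -0.41 with 13.5% lost. Of the gained peaks named here 20 had a tested region, with H3K27ac log2 fold changes from -0.66 to 5.35 and a median of 1.72, and 12 of them were called higher. Values ran from 5.35 near Edn1 and 4.94 near Nfkb1 to 1.31 near Mir155hg (adjusted p = 0.336) and -0.16 near the distal Acod1 peak (adjusted p = 0.863). Of the lost peaks named here 11 had one, from -2.71 near Mir21c to 0.64 near Arl4c with a median of -0.73, and 3 were called lower.

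Finally, H3K27ac was compared between Pgc1b flox Cre and Pgc1b flox BMDMs, both with KLA, where Cre is driven by the myeloid LysM gene. Of 25197 tested regions, 0.702% were higher and 6.81% lower with Cre, and the median of all was -0.38. At 1124 matched gained PGC1β peaks the median was -0.47, with 118 (10.5%) lower and 3 higher, and at 1183 matched lost peaks -0.32, with 81 (6.85%) lower and 14 higher. Uncalled PGC1β peaks had a median of -0.42 with 8.91% lower. At gained PGC1β peaks median H3K27ac tags were 54.4 and 53.3 in flox and 49.9 and 48.4 in flox Cre cells with Veh, and 94.3 and 98.6 in flox and 67.2 and 65.8 in flox Cre cells with KLA. At lost peaks with KLA they were 23.9 and 24.8 in flox and 20.9 and 20.8 in flox Cre cells. With TMM scaling the medians at gained and lost peaks were -0.073 and 0.054, so the direction at lost peaks turned, and the median of all regions with TMM was 0.014. Only 3 gained peaks named here had a tested region, with log2 differences of -1.77 ± 0.20 near Ccl7 (SE, adjusted p = 1.59e-16), -0.84 near Pdgfrb (adjusted p = 9.48e-06) and -0.28 near Cxcl10 (adjusted p = 0.0832). The 19 named lost peaks with one ranged from -1.36 to 0.77, with a median of -0.29.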

How the data were processed

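Tags were single-end reads from chromatin fixed with disuccinimidyl glutarate and formaldehyde. Per the study's methods and the submitters' processing notes, the authors aligned reads to mm10 with Bowtie2, found peaks with HOMER, kept those reproducible between replicates with Veh or KLA, merged both sets and deposited raw tag counts per peak (at most 3 tags per position per the file headers). Versions are not given in the sources used here. The authors' DESeq2 results were not used. Library totals in the headers, 9155939 to 21511411 tags, served as library sizes. Peaks with at least 4 tags in 1 library (H3K27ac, 16) were tested with edgeR 4.0.16 in R 4.3.3 by its quasi-likelihood test, two-sided, with Benjamini-Hochberg adjustment over each whole table, and called at adjusted p under 0.05 and over 2-fold. All 45675 peaks passed the minimum. Groups came from the labels. PGC1β with DMSO and both H3K27ac tables were fitted with all groups of their table. Alternatives used TMM, DESeq2 1.42.0, other filters, a replicate block, each library left out and an offset for GC content in 20 bins. Named peaks were, in each direction, the 12 of lowest p with 1 per nearest gene and the 8 genes with the most called peaks, then up to 4 members of each list by lowest p and the strongest peak of 8 fixed genes. Members and lists were chosen with earlier results of these data known. The labels do not say whether replicate numbers mark a shared culture or day, and the libraries were not treated as paired. Deviations of same-numbered libraries had a correlation of -0.0069 over peaks, which cannot show whether they were paired.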

Additional observations from a re-analysis of the deposited data

How the results depend on the processing

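Each called named peak kept its direction under every alternative that tested it (85 of the 112 named peaks are distal and were in the distal fit), while 2 uncalled ones turned without KLA replicate 1, the Abca1 promoter (-0.077 to 0.44 over the libraries left out) and the Acp5 peak (-0.12 to 0.72). Of the 112 only Pdgfrb lost its call with TMM, DESeq2 size factors and the DESeq2 Wald test. Without Veh replicate 2, 13 lost it (Ncr1, Gcnt1, Ncoa3, Bhlhe41, the Ptgs2 promoter, Pdgfrb, Tef, Pecam1, Uqcrfs1, Npas2, Nrf1, the strongest Il12a peak and Sirt1), without Veh replicate 1, 6 (Ncoa3, Pdgfrb, Uqcrfs1, Npas2, Ndufa9 and Sirt1), without KLA replicate 1, 2 (Pdgfrb and Sirt1), while Ppargc1b gained one, and without KLA replicate 2 none changed. A group left with 1 library was assumed to vary like the other. The called counts were 7171 gained and 4288 lost with DESeq2 size factors and 6197 and 2985 with the Wald test. The replicate block gave 7147 gained and 2638 lost peaks, within 1.5 times the counts without it, and changed no named call; the numbers share no known source. Leaving out a library gave 3753 to 10639 gained and 578 to 5375 lost peaks, and medians of all peaks from -0.089 to 0.24. The share of calls within 2 kb of a TSS was 8.31 to 10.6% of gained and 14.2 to 18.8% of lost peaks, and the lists held 360 to 713 gains and 29 to 200 losses. The GC bin offset, chosen after the data were seen, gave 5411 gained and 4926 lost peaks, and 52.3% of its calls were gains against 72.1%; the calls of Pdgfrb, Uqcrfs1, Nrf1, Ndufa9 and Sirt1 were lost. With TMM in both tables the medians at gained peaks were 1.37 for HDAC3, 1.83 for p65, 1.18 for PU.1, 1.88 for p300 and -0.073 for H3K27ac of flox Cre against flox, and at lost peaks -1.64 for p65, -0.83 for PU.1, -1.79 for p300 and 0.054 for the last; the cause was not tested. In 100 bp windows NF-κB matches stood in 4.33% of gained and 0.483% of lost peaks and PU.1 in 4.06 and 7.005%, and in whole peaks NF-κB stood in 8.11% of gained peaks. Leaving out the minimum of 4 tags changed nothing, since all peaks passed. Precision is limited by 2 libraries a group and by KLA replicate 1, the shallowest.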
